A study of Mus musculus with 34 samples.

Results

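The regions examined were the open chromatin positions of mouse embryonic fibroblasts (MEF) after 2 days of Etv2 induction, in cells with Brg1 knockdown and in cells without it. The assay was ATAC-seq: a transposase inserts sequencing adapters where DNA is accessible. Each position is a summit, meaning the single base where the signal of a called peak, or of one of its parts, is highest. Both groups were MEF with the doxycycline-inducible Etv2 that the labels name iHA-Etv2, both had received doxycycline, both were collected on day 2 and neither was sorted for Flk1. They differ in the label by Brg1 knockdown alone. The labels do not state how the knockdown was made, how far Brg1 fell, or the age or sex of the embryos. Of the 34 samples of the series, 4 belong to this comparison, 2 per group, and both samples of a group name the same summit list. There is therefore 1 list per group, no replicate error and no p-value, and every difference given here is a difference between 2 lists. Exact Clopper-Pearson 95% intervals cover counting error only.

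On chromosomes 1 to 19 and X the knockdown list held 37772 summits and the control list 26217. The score of a summit, the −log10 of its q-value, tends to grow with sequencing depth, and read depth was not analysed here. The lists were therefore compared at equal numbers, with the 26217 highest-scoring knockdown summits (scores of at least 4.43) against the whole control list, whose lowest score is 1.31. A summit was shared when the other list had one within 250 bp, and otherwise knockdown-only or control-only. The lists were processed differently, as the precision of their scores shows: 31.5% of control scores have more than 6 significant digits, against 0% of knockdown scores. The same split runs between the 5 control-arm lists (27.3 to 52.1%) and the 7 knockdown lists (0%). Knockdown and processing cannot be told apart in any value below.

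Brg1, encoded by Smarca4, is an ATPase of the SWI/SNF (BAF) complexes, which slide or evict nucleosomes and so keep enhancers and many promoters accessible to transcription factors. Etv2 is an ETS-family factor that directs mesodermal cells towards endothelial and blood fates, and its forced expression turns fibroblasts towards an endothelial fate. In fibroblasts many enhancers carry sites for AP-1 (Fos and Jun dimers) and for TEAD factors, and AP-1 is known to work together with SWI/SNF at such enhancers. The comparison asks which open positions of induced fibroblasts differ between the group labelled Brg1 knockdown and the group without it.

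Of 17274 protein-coding genes with a start in the reference, 7414 had a summit within 1 kb of it in both lists, 1079 (6.25%) in the knockdown list only and 375 (2.17%) in the control list only. The promoter sequences of 5 genes of the last 2 kinds follow, since they show both directions at named starts. Zeb2, a zinc finger repressor of the mesenchymal state, Runx1, a factor needed for the first blood stem cells, and Cd44, a hyaluronan receptor, had such a summit in the knockdown list only. Phf10, a subunit of the PBAF form of SWI/SNF, had one in the control list only and none at any score in the knockdown list. Axl, a receptor tyrosine kinase and a known target of YAP and TEAD, had one in the control list only at equal numbers, with a knockdown summit 102 bp from the start below the score limit. Each sequence holds the 250 bases before the annotated start (RefSeq, GRCm38.p6, all minus strand, written in the direction of the gene). Capitals mark matches, on either strand, to any of 14 short motifs, which overlap in places. The windows are chr2:45110278-45110527 (Zeb2), chr16:92697330-92697579 (Runx1), chr2:102901666-102901915 (Cd44), chr17:14961261-14961510 (Phf10) and chr7:25788734-25788983 (Axl).
Zeb2: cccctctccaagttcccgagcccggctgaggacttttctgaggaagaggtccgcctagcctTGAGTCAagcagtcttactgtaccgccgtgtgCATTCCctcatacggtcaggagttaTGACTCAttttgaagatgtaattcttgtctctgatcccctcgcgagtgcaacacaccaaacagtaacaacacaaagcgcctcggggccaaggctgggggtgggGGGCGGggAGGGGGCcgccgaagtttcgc
Runx1: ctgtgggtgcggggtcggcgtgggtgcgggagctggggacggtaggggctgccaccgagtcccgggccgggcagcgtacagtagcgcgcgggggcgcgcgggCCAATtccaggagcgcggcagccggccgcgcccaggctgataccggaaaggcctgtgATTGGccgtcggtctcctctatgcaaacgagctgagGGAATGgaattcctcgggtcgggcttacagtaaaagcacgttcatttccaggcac
Cd44: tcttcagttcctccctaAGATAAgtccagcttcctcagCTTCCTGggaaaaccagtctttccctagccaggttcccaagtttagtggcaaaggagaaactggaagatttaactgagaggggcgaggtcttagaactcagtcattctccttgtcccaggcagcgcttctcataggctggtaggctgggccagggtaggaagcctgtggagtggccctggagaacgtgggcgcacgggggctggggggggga
Phf10: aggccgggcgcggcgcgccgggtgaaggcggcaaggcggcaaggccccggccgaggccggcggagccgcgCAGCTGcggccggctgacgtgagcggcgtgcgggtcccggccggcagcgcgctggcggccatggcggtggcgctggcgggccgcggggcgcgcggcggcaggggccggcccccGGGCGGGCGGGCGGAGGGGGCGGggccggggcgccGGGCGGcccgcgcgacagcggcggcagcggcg
Axl: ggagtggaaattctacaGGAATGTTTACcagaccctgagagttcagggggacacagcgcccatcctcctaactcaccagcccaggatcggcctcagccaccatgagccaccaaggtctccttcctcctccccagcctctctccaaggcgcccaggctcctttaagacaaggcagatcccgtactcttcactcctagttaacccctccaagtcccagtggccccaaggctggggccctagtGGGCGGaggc
The Zeb2 window holds a pair of matches to the AP-1 motif TGANTCA, 189 and 132 bases before the start, and between them a match to the TEAD motif GGAATG on the other strand. Its knockdown summit lay 156 bp after the start with a score of 8.35. The Runx1 window holds both orientations of the NFY motif CCAAT and a GGAATG match, and its summit lay 15 bp before the start with a score of 6.82. In the Cd44 window the capitals mark a match to AGATAA, the motif of the GATA family of blood factors, and a match on the other strand to the ETS motif CAGGAAG, and the summit lay 181 bp after the start with a score of 14.3. The Phf10 window is the richest in CG, with 51 CG dinucleotides against 14 for Zeb2, and its long run of capitals joins overlapping matches to the SP/KLF motif GGGCGG and the CTCF core AGGGGGC. The control summits nearest to the Phf10 start lay 288 and 504 bp before it with scores of 8.48 and 10.7. The nearest knockdown summit lay 17576 bp away. Both control summits had a partner within 250 bp in knockdown MEF kept for 2 days without doxycycline. The Axl window holds GGAATG overlapping TGTTTAC (forkhead) and GGGCGG near the start, and its control summit lay 24 bp before the start with a score of 2.28. A match is a description of letters and not a measured binding site.

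The same 14 motifs were counted in the 300-base windows (250 before to 50 after the start) of 21045 promoters. Of these, 8619 had a summit within 1 kb in both lists, 1330 in the knockdown list only and 482 in the control list only. Knockdown-only promoters held TGANTCA (AP-1) in 8.20% (6.78 to 9.80%) against 4.15% (2.55 to 6.34%) of control-only promoters and 7.04% of all promoters. The ETS motif CCGGAAG stood in 17.4% (15.4 to 19.5%) against 11.6% (8.90 to 14.8%), with 11.7% of all promoters. GGGCGG went the other way, with 55.0% (52.2 to 57.7%) of knockdown-only and 70.7% (66.5 to 74.8%) of control-only promoters, against 46.7% of all. Promoters with a summit in both lists stood at 3.85% for AP-1, 20.9% for CCGGAAG and 70.4% for GGGCGG. The TEAD motif GGAATG differed less, at 13.6% and 11.4%, with 13.5% of all promoters, and the intervals overlap. The classes also differed in base composition. In 300 bases the median knockdown-only promoter held 16 CG dinucleotides and the median control-only promoter 27. The median was 23 for promoters in both lists and 4 for those in neither. Promoters in neither list held AP-1 in 9.61% and GGGCGG in 25.3%. The part of base composition in the motif shares was not tested.

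At equal numbers and within 250 bp most positions were shared, while within 100 bp 45.5% of knockdown and 45.7% of control summits were. Of the knockdown summits 15955 (60.9%, 60.3 to 61.4%) had a partner in the control list, and of the control summits 16838 (64.2%, 63.6 to 64.8%) had one in the knockdown list. The knockdown-only class held 10262 summits (39.1% of the list), or 19909 over whole lists, and the control-only class 9379 (35.8%). Of the control-only summits 1847 had a partner among the lower-scoring knockdown summits and 7532 had none at any score. Shared positions were more often at gene starts: 45.6% (44.9 to 46.4%) of shared control summits lay within 1 kb of a gene start, against 21.8% (21.0 to 22.6%) of knockdown-only and 20.5% (19.7 to 21.3%) of control-only summits. Between the 1-list classes this order turned with matching within 100 bp (27.7% and 28.8%) and over whole lists (17.2% and 21.6%), and among the 10000 highest-scoring summits the shares were 45.1% and 22.8%. Far from genes the classes with 1 list parted. Summits over 100 kb from any start made up 25.4% (24.5 to 26.2%) of the knockdown-only and 33.4% (32.5 to 34.4%) of the control-only class. Median scores within the knockdown list were 18.2 for shared and 7.92 for knockdown-only summits, and within the control list 8.17 for shared and 3.84 for control-only summits.

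The strongest summits of the lists differed in kind. Among the 1000 highest-scoring knockdown summits 10 (1.00%, 0.481 to 1.83%) had no partner anywhere in the control list. Of the 1000 highest-scoring control summits 155 (15.5%, 13.3 to 17.9%) had none in the whole knockdown list, which is the longer one. Lower ranks showed the opposite order, with 70.1% of knockdown summits ranked 20001 to 26217 unpartnered against 47.9% of control summits. Here control summits were looked up among 37772 knockdown summits and knockdown summits among 26217 control summits. The part of this unequal length in the order was not tested. At equal numbers 39.1% of knockdown and 35.8% of control summits had no partner. Gene starts followed the ranks too: they held 60.8% of the top 1000 knockdown summits and 32.2% of the top 1000 control summits, yet 36% and 36.6% of the lists as wholes at equal numbers. Part of this lay in a few broad blocks. The 10 highest-scoring control-only summits without any knockdown partner had scores of 4788 to 12730, and 8 of them lay in 2 peaks, 1 of 93 summits at the start of chromosome 9 and 1 of 10 summits on chromosome 14. Without the 51 blocks of 100 kb that held a summit scoring at least 500 or a peak of at least 10 summits in either list, an alternative added after the data were seen, 12.6% of the top 1000 control summits and 0.700% of the top 1000 knockdown summits stayed unpartnered.

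**Figure D1:**
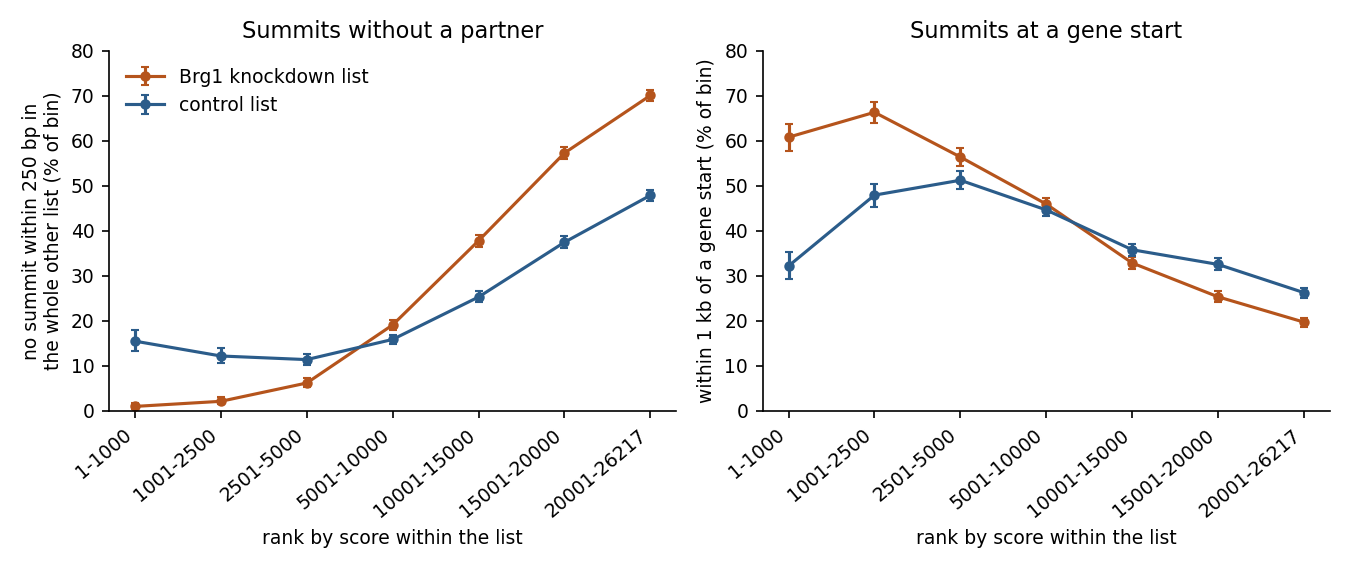
Share of summits without a partner within 250 bp in the whole other list (left, % of the bin) and share within 1 kb of a gene start (right, % of the bin), by rank of the score within each list; bars are exact 95% intervals. In the first bin 1.00% of knockdown and 15.5% of control summits lack a partner, and from rank 5001 on the knockdown list has the higher share. The other list holds 26217 summits for the knockdown bins and 37772 for the control bins.

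Some of the strongest 1-list summits lay in peaks of 1 or 2 summits. At a score of 583.5 a knockdown-only summit at 80002938 on chromosome 4 stood 831185 bp from the nearest gene, Tyrp1, an enzyme of melanin synthesis. It was present in all 7 knockdown lists and in none of the 5 control-arm lists. A summit at 112578265 on chromosome 13, inside the interleukin receptor gene Il31ra, and one at 85127196, 62181 bp from the cyclin gene Ccnh, showed the same pattern. In the other direction a control summit at 103649186 on chromosome 6, inside the neural adhesion gene Chl1, scored 4851 and was in all 5 control-arm lists and in 2 knockdown lists. Few positions met this arm-wide rule, which short lists also limit. Of the knockdown-only summits 51 (0.497%) were in every knockdown list and no control-arm list. Of the 7532 control summits with no knockdown partner, 57 (0.757%) were in every control-arm list and no knockdown list. The shortest knockdown list, day 7 without doxycycline (11188 summits), held only 5.76% of the knockdown-only class. The shortest control-arm list, unsorted day 7 (18418 summits), held 39.0% of the 7532. The counts cannot exceed these shares.

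Most positions called in 1 list on day 2 had been called elsewhere in fibroblasts. Of the knockdown-only summits 66.4% (65.4 to 67.3%) lay at a summit of uninduced MEF without knockdown, 62.2% at one of knockdown MEF on day 0 and 66.4% at one of knockdown MEF kept for 2 days without doxycycline. No other fibroblast list held 5.22% of them, and 82.8% were in at least 1 control-arm list. Control-only summits were found in uninduced MEF in 56.7% (55.7 to 57.7%), but in the uninduced knockdown lists less often, with 37.4% on day 0 and 36.7% on day 2. These lists differ in length, and uninduced MEF is the longest with 62028 summits. At equal numbers of 26217 summits the lists parted by arm. Uninduced MEF then held 33.8% of the knockdown-only class, against 50.2% in knockdown MEF on day 0 and 52.8% in knockdown MEF kept for 2 days without doxycycline. For the control-only class the shares were 31.1%, 25.6% and 23.8%.

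On day 1 the control list held 62.6% of knockdown-only and 62.3% of control-only summits, and 33.6% and 36.9% at equal numbers. The induced day-1 knockdown list held 46.6% and 30.6%. On day 7 the control-only class had the higher share in both arms. Knockdown-only positions of day 2 were seldom called on day 7, with 9.72% in control MEF, 6.10% in knockdown MEF with doxycycline and 5.76% in knockdown MEF without it. For control-only positions the shares were 38.8%, 31.1% and 27.5%. In the induced day-7 knockdown list the control-only class thus matched as often as the shared class, which stood at 31.3% (control summits). The day-7 Flk1-positive list, sorted for the receptor that Kdr encodes, did not separate the classes in this way, with 38.5% and 43.4%. Day-7 lists are short (11188 to 18418 summits without the sorted one). Without the 51 blocks the induced day-7 knockdown list still held 5.72% and 29.5%. With matching within 100 bp the shares were 7.25% and 17.3%, and among the 10000 highest-scoring summits 18.4% and 48.1%.

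**Figure D2:**
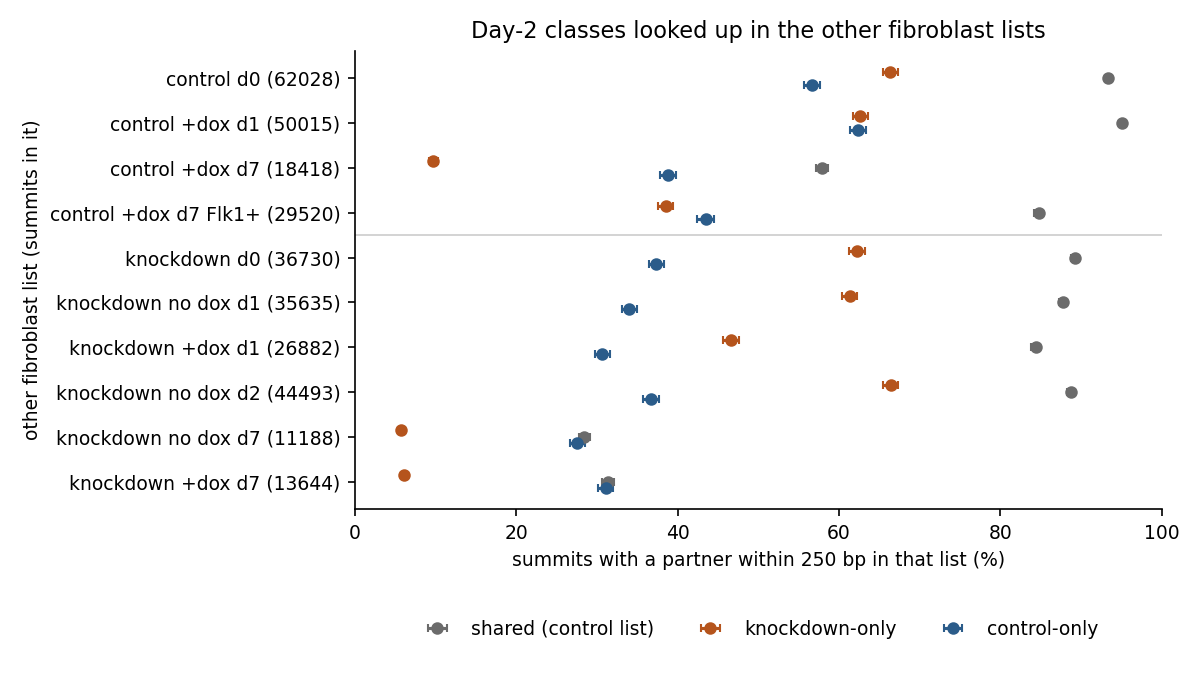
Share of day-2 summits with a partner within 250 bp (%, x axis) in each of the 10 other fibroblast lists (y axis, with the number of summits in that list), for the shared, knockdown-only and control-only classes; bars are exact 95% intervals. Knockdown-only positions stand at 66.4% in uninduced control MEF and at 6.10% in the induced day-7 knockdown list, where control-only positions stand at 31.1%.

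Control positions of day 2 that were not called in uninduced MEF were looked up in the knockdown lists. The control arm has no uninduced list of day 2, so that Etv2 and 2 days of culture cannot be told apart in them. Of the 26217 control summits 5190 had no partner in uninduced MEF and are called gained here. The knockdown list at equal numbers held 1128 of them (21.7%, 20.6 to 22.9%), or 14.3% with 1 summit per peak, against 15710 (74.7%, 74.1 to 75.3%) of the 21027 summits already present before induction. Knockdown MEF that never received doxycycline held as many gained positions, 1191 (22.9%, 21.8 to 24.1%), and 72.6% of those present before induction. Gained positions were chosen for having no partner in uninduced MEF, the longest list. Such a choice can by itself lower their share in any further list, so that the contrast does not measure an effect of the knockdown. The scores of gained and present positions were not compared. The membership of the 2 knockdown lists overlapped in part: 597 gained positions (11.5%) were in both, 531 (10.2%) in the induced list alone, 594 (11.4%) in the uninduced list alone and 3468 (66.8%) in neither. Gained positions at gene starts were held more often than those elsewhere. In the induced list these shares were 31.7% (28.9 to 34.7%) of 1037 and 19.2% (18.1 to 20.5%) of 4153, and in the uninduced list 29.4% and 21.3%. Positions present before induction had the same order, so that it is not particular to gained ones. Their shares at gene starts and elsewhere were 85.8% and 67.1% in the induced list and 86.5% and 63.0% in the uninduced list. The uninduced control list was processed like the control list, so that a position can be gained or held for reasons of processing, and their part was not tested.

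**Figure D3:**
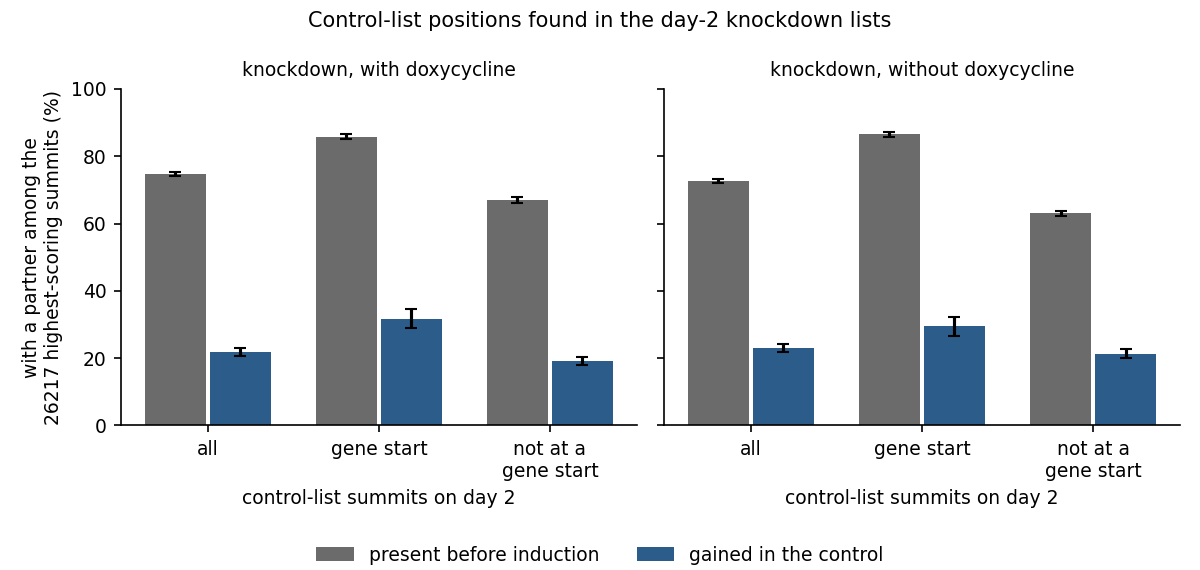
Share of control-list summits of day 2 (%, y axis) that have a partner within 250 bp among the 26217 highest-scoring summits of the day-2 knockdown lists with (left) and without (right) doxycycline; bars are exact 95% intervals. Gained positions stand at 21.7% and 22.9% of all summits, and those present before induction at 74.7% and 72.6%.

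Summits were next counted around genes, within 50 kb of the gene's interval. A gene is called higher here when it had more knockdown-only than control-only summits, and lower in the reverse case. Of the 17969 protein-coding genes with a summit in either list 43.4% were higher and 26.8% lower. Of the 375 gene starts with a control summit only, 210 had a knockdown summit below the score limit and 165 none. The labelled cell type was checked at the starts of marker genes. Of 33 fibroblast genes with a start in the reference 17 had a summit there in both lists, 6 in the knockdown list only and 1 in the control list only. Of all genes 42.9% had one in both lists, 6.25% in the knockdown list only and 2.17% in the control list only. The count in both lists alone does not mark fibroblasts. Of 54 starts of markers of other cell types 48 had a summit in neither list, where 48.7% of all genes had none. Of the rest 3 had one in both lists, 1 in the knockdown list only and 2 in the control list only. By cell type, 0 of 7 epithelial starts and 1 of 8 macrophage starts had one in either list. Of 11 neural starts 1 had one in both lists and 2 in the control list only.

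**Figure D4:**
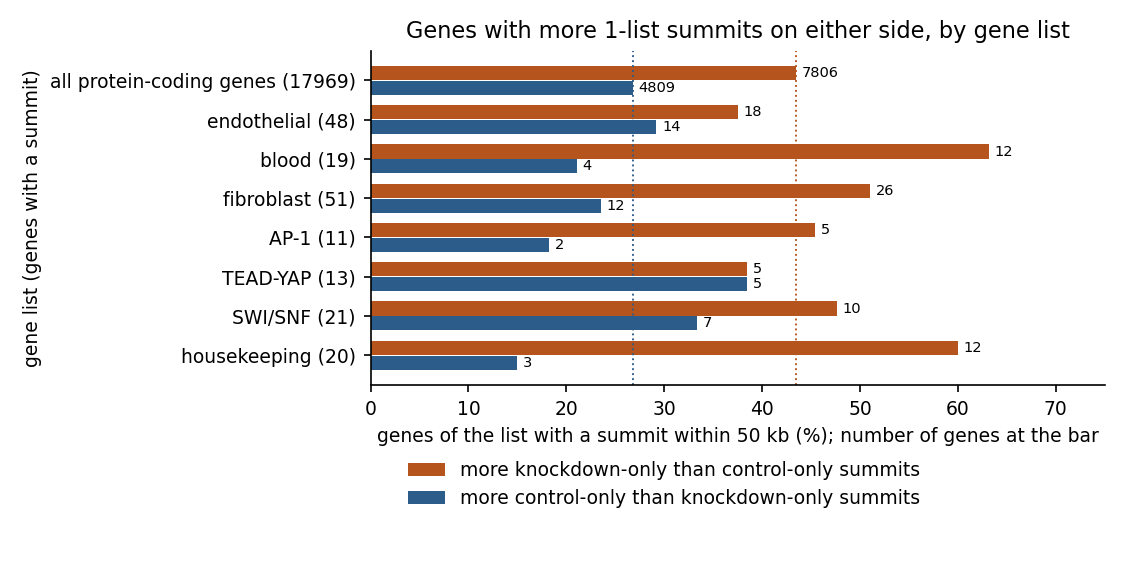
Genes with more knockdown-only than control-only summits within 50 kb (upper bar) and with more control-only summits (lower bar), as % of the genes of each list that have a summit, with the number of genes at the bar; dotted lines mark all protein-coding genes (43.4% and 26.8%). Blood (12 of 19) and housekeeping genes (12 of 20) have the highest shares with more knockdown-only summits, and TEAD-YAP genes are even (5 and 5 of 13).

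The SWI/SNF genes include the target of the knockdown. Smarca4 (chromosome 9, 21616106 to 21704230) had 6 summits in the knockdown list and 4 in the control list, 2 of them knockdown-only and 0 control-only. Its start was open in both, with summits 131 and 71 bp before the start and scores of 17.2 and 4.40. A knockdown acts on the RNA or protein, so that these counts do not measure its level. Smarca2, which encodes Brm, the alternative ATPase of the complex, had 4 knockdown-only and 0 control-only summits, 2 of them 1361 and 1550 bp after its start and absent from both uninduced MEF and uninduced knockdown MEF of day 2. Smarcd3, for the BAF60C subunit, had 3 and 0, with 1 of them 359 bp before the start. At Phf10 (chromosome 17, 14944994 to 14961260) the order was the reverse, with 0 knockdown-only and 7 control-only summits. Those 7 spread from 14943522 to 15009367 with scores of 1.60 to 10.7, and 5 of them were already in uninduced MEF. Those at 14961548 and 14961764, next to the start, and that at 14993078 were also in uninduced knockdown MEF of day 2. Smarcc1, for the core subunit BAF155, had 0 and 2. Of the 21 SWI/SNF genes with a summit 10 were higher (47.6%) and 7 lower (33.3%), against 43.4% and 26.8% of all genes.

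AP-1 genes were mixed. Fosb (chromosome 7, 19302696 to 19310118), an inducible Fos protein, had 8 knockdown-only and 2 control-only summits, the strongest of them 10064 bp before the start with a score of 27.0. Fosl1, for Fra-1, the Fos protein typical of mesenchymal cells, had 7 and 2. Jun had 2 and 1, and its start held a summit in both lists. Atf3, a stress-induced partner of Jun, had 1 and 3, with control-only summits 701 and 36032 bp after the start and 40931 bp before it. Among the 11 AP-1 genes 5 were higher (45.5%) and 2 lower (18.2%), near the 43.4% and 26.8% of all genes.

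TEAD and YAP genes split evenly, 5 higher and 5 lower of 13 (38.5% each), against 43.4% and 26.8% of all genes. Axl had 7 knockdown-only and 3 control-only summits although its own start was called in the control list only. Tead2 had 2 and 0, both within 1 kb of its start (130 and 428 bp after it), with 0 control summits within 50 kb. Wwtr1, the gene for the coactivator TAZ, had 3 and 1. Ajuba, a LIM protein that restrains Hippo kinases, had 1 and 4. Of these 4 control-only summits 3 formed a group 43831 to 44529 bp after the start with scores of 14.3 to 24.9, all 3 already in uninduced MEF and none in uninduced knockdown MEF of day 2. Amotl2, which binds YAP, had 2 and 5, and Tead1 had 0 and 2.

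Among endothelial genes the receptor and transcription factor genes moved both ways. Eng (chromosome 2, 32646595 to 32682669), the coreceptor endoglin of TGF-beta signalling, had 7 knockdown-only and 1 control-only summits. The knockdown-only ones lay from 38653 bp before to 81007 bp after the start with scores of 5.01 to 19.9, and 5 of the 7 were already in uninduced MEF. Over whole lists Eng had 16 summits in uninduced MEF, 17 on day 1, 5 on day 2 and 3 on day 7 of the control arm, and 11, 7, 13 and 0 in the induced knockdown arm. Ets1, an ETS factor of vessels and lymphocytes, had 4 and 0, with 15, 12, 1 and 1 summits in the control arm and 7, 2, 9 and 0 in the knockdown arm on the same days. Day 2 was thus the only one of these days on which the knockdown list held more summits at either gene, and also the only one on which it was the longer list. Sox7, a SoxF factor of early vessels, had 3 and 0, with 0 control summits. Kdr, which encodes Flk1, had 0 knockdown summits at equal numbers and 1 control summit, 11953 bp before the start, with a score of 12.5. Its whole-list counts on days 0, 1, 2 and 7 were 4, 5, 1 and 0 in the control arm. In the induced knockdown arm they were 1, 0, 1 and 0, so that on day 2 the whole lists held 1 each. Fli1, an ETS factor of blood and endothelium, had 0 and 2. Counted together, 18 of 48 endothelial genes were higher (37.5%) and 14 lower (29.2%), a share of higher genes below that of all genes. With 1 summit per peak the order turned, with 14 higher (29.17%) and 19 lower (39.58%), against 34.85% and 24.83% of all genes.

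Mecom (chromosome 3, 29951296 to 30509759), a zinc finger factor of blood stem cells that also serves in arteries, had 10 knockdown-only and 3 control-only summits. The strongest knockdown-only summit at Mecom scored 32.4 at 30214009 inside the gene, and 3 lay 1463, 2137 and 2341 bp after a start at the upstream end. Over whole lists Mecom had 27, 27, 6 and 3 summits on days 0, 1, 2 and 7 of the control arm and 20, 11, 20 and 1 in the induced knockdown arm. Itga2b, the platelet integrin CD41 and an early blood marker, had 4 and 0. Runx1 had 4 and 1, with 3 of the knockdown-only summits between 42627 and 43195 bp after the start, scoring 13.8 to 15.3. All 4 knockdown-only positions at Runx1 were already open in uninduced MEF. Cd44 had 3 and 0. Lmo2, a bridging cofactor of blood and endothelial factors, had 1 and 2, and its knockdown-only and nearest control-only summits lay 265 bp apart, just past the matching distance. Of 19 blood genes with a summit 12 were higher (63.2%) and 4 lower (21.1%), against 43.4% and 26.8% of all genes. Among the blood genes with unequal counts the higher share was 75%, and among housekeeping genes it was 80%. An even split is not the background here, since over all genes 7806 were higher and 4809 lower. The blood interval of 47.6 to 92.7% takes the genes as independent, although each group has 1 list, and no conclusion is drawn from it. Cd44 and Runx1 are also expressed in fibroblasts.

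Of 51 fibroblast genes 26 were higher (51.0%) and 12 lower (23.5%), against 43.4% and 26.8% of all genes. Zeb2 (chromosome 2, 44983512 to 45117442) had 5 knockdown-only summits and none in the control list. In the control arm its whole-list counts were 16, 13, 0 and 2 on days 0, 1, 2 and 7, and in the induced knockdown arm 9, 5, 8 and 0. All 5 positions were already open in uninduced MEF, and 4 of them lay beyond the 3′ end of the gene, 132524 to 153801 bp from the start. Col1a1, the main chain of type I collagen, had 6 and 1, and every knockdown-only position at it was open in uninduced MEF. Ddr2, a collagen receptor, had 3 and 0, and Fbn1, for the microfibril protein fibrillin-1, had 4 and 1. Postn, for the matrix protein periostin, had 0 and 3, the latter 12104 to 13010 bp before the start. Snai1, a repressor of epithelial genes, had 1 and 3. Ccn1, a secreted matrix protein and YAP target, had 2 and 4, with 3 of the control-only summits within 323 bp of the start and above knockdown summits of lower score, so that over whole lists the order turned to 1 more knockdown-only than control-only summit.

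Reference genes give the scale of these counts. Gapdh, a glycolytic enzyme gene, had 7 knockdown and 8 control summits, all of them shared. Actb, for cytoplasmic actin, had 3 knockdown-only and 1 control-only summits, and Etv2 itself 1 and 0. Of 20 housekeeping genes 12 were higher (60.0%) and 3 lower, so that more of them were higher than the 43.4% of all genes. Neural genes were 2 higher (18.2%) and 6 lower (54.5%) of 11, against 43.4% and 26.8% of all genes. Over whole lists, where the knockdown list is longer by 11555 summits, 67.3% of all genes were higher and 12.4% lower.

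**Figure D5:**
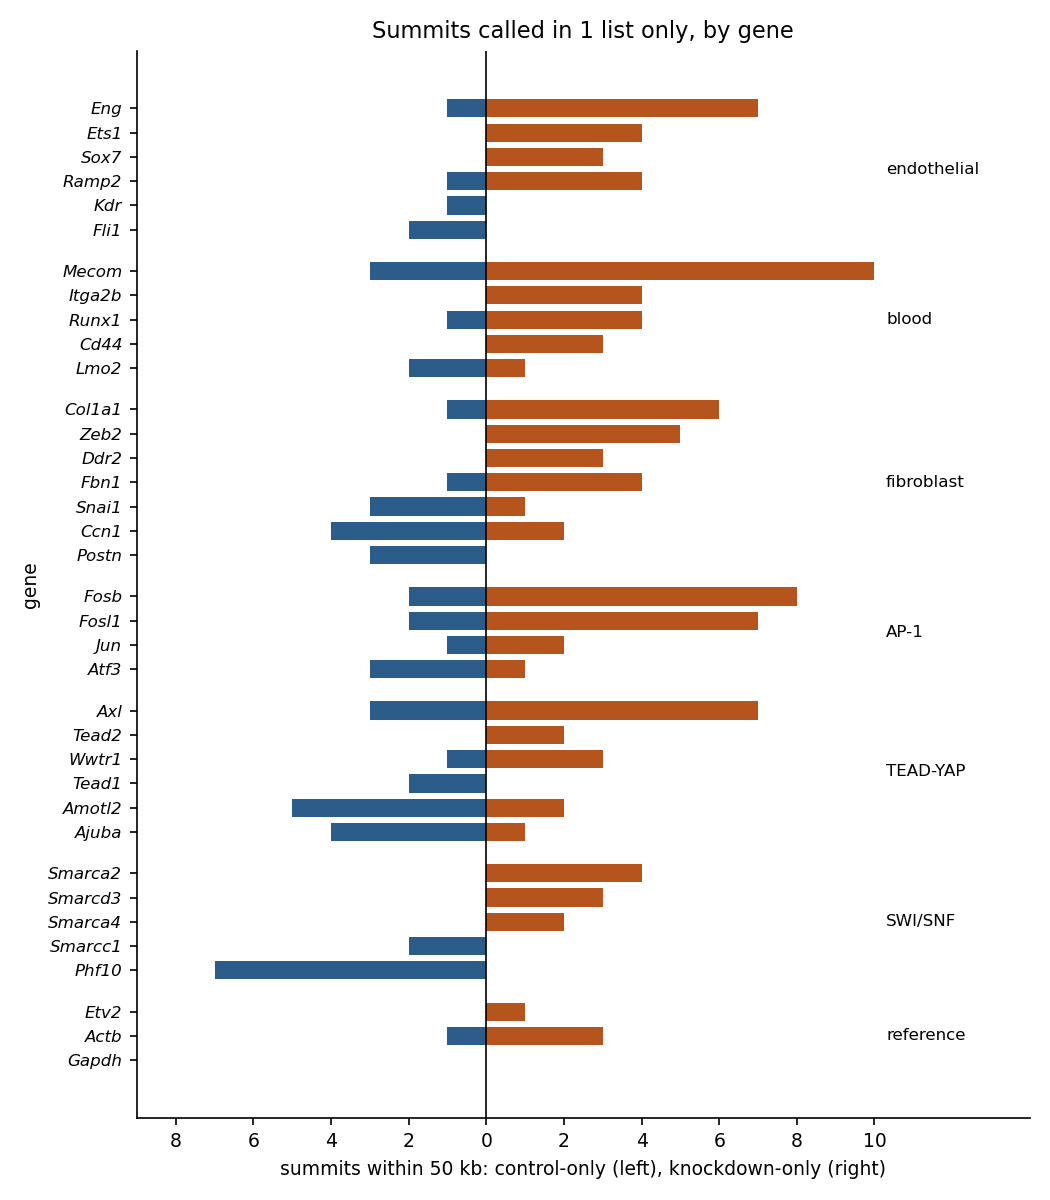
Summits within 50 kb of each gene at equal numbers, control-only to the left and knockdown-only to the right (number of summits, x axis), by gene list. Mecom (10 and 3) and Fosb (8 and 2) extend farthest to the right, followed by Eng, Fosl1 and Axl with 7 knockdown-only summits each, and Phf10 (0 and 7) farthest to the left.

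By chromosome the lists were alike with a few exceptions. The X chromosome held 2.81% (2.62 to 3.02%) of the knockdown and 3.51% (3.29 to 3.74%) of the control summits at equal numbers, a ratio of 0.802, and 4.99% of the control-only class. Chromosomes 2 and 15 went the other way, with ratios of 1.17 and 1.15. Eng, Zeb2, Cd44 and Fbn1 lie on chromosome 2. Without the 51 blocks the ratios were 0.861, 1.14 and 1.15.

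The other days place these values, each at the length of its shorter list. That length was 36730 summits on day 0, 26882 on day 1, 26217 on day 2 and 13644 on day 7. At equal numbers 64.5% of control summits were shared on day 0, 62.7% on day 1, 64.2% on day 2 and 54.6% on day 7. Of the knockdown summits 63.6%, 61.7%, 60.9% and 53.9% were shared on the same days. The day-2 share thus lay between those of days 0 and 1 for control summits and below both for knockdown summits, and no doxycycline had been given on day 0. At gene starts the control-only class differed more by day, with 10.7%, 14.1%, 20.5% and 49.9% of its summits within 1 kb of a start. The knockdown-only class had 17.0%, 23.3%, 21.8% and 10.8%. The part of list length in these differences between days was not tested.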

How the data were processed

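ATAC-seq summit lists of 12 MEF groups were read. Per the submitters' processing notes the authors used Bowtie2 2.2.4, MACS2, HOMER and the mm10 build; trimming, duplicate handling, the transposase shift and how replicates were pooled are not given in the sources used here. The deposited score is −log10 of the q-value. The peak names place the arms under differently named runs. Matching and intervals were computed in Python 3.11.15 (pandas 2.3.3, numpy 2.4.6, scipy 1.17.1), with figures from matplotlib 3.10.9; the matching was tested on simulated lists. Gene intervals and promoters are RefSeq GRCm38.p6; all 278 listed symbols were found, and 17274 of 21631 protein-coding genes have a start in the table. Genes named are, per family, the 5 highest and 3 lowest differences, the genes nearest the strongest 1-list summits, and 6 fixed genes; the text gives examples of these. Members, lists and rules were chosen with earlier results of these data known. Alternatives changed the matching distance, list length, score limit, summits per peak and gene window, and left out high-signal blocks.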

Additional observations from a re-analysis of the deposited data

Results flagged for a closer look

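The length of the knockdown list against the control list set day 2 apart: it was longer by 11555 summits, whereas on days 0, 1 and 7 it was shorter (differences of -25298, -23133 and -4774). This difference between days was not tested, since each group has 1 list.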

How the results depend on the processing

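Each group has 1 pooled list, so no replicate could be left out. No paired analysis was possible because both samples of a group name the same list. Of 134 values under other settings, 59 stayed within their limit, 74 moved beyond it and 1 changed direction. The limit was the 95% interval, 1.5 times for counts, or a narrower factor for the chromosome ratios. A change of direction was judged only for the chromosome ratios and for the share of higher genes per gene list. TEAD-YAP, even at equal numbers, could not change direction by this rule. Other shares and all counts could only stay or move, and turned orders between classes are named below. In this paragraph the gene-start and uninduced-MEF shares are given in the order knockdown-only, control-only, shared where all 3 moved, and day 7 stands for the induced day-7 knockdown list. With matching within 100 bp, 45.5% of knockdown and 45.7% of control summits were shared, 14238 were control-only, 27.7% and 28.8% of the 1-list classes lay at gene starts, 49.1%, 42.1% and 82.6% were in uninduced MEF, 20.2% of gained positions were held, and 7.25% and 17.3% were in day 7. Within 500 bp the values were 66.8% and 73.3% shared, 18% and 11.8% at gene starts, 74.7%, 65.3% and 97.3% in uninduced MEF, 17.6% held, and 4.69% and 40.9% in day 7. Whole lists gave 47.3% and 71.3% shared, 19909 knockdown-only, 17.2%, 21.6% and 42.7% at gene starts, 55.0%, 52.8% and 91.2% in uninduced MEF, 31.5% held and 5.56% of knockdown-only in day 7. The 10000 highest-scoring summits gave 61.8% of knockdown summits shared, 3823 knockdown-only and 3595 control-only, 45.1%, 22.8% and 58.3% at gene starts, 90.9%, 80.6% and 97.5% in uninduced MEF, 18.4% held, and 18.4% and 48.1% in day 7. One summit per peak gave 63.5% shared in both lists, 20.9%, 16.6% and 46.9% at gene starts, 73.2%, 64.5% and 96.6% in uninduced MEF, 14.3% held, and 7.85% and 29.0% in day 7. A score of at least 5 gave 44.8% and 76.7% shared, 3538 control-only, 27.0% of knockdown-only and 48.9% of shared at gene starts, 74.7%, 67.3% and 95.3% in uninduced MEF, 31.9% held, and 7.48% and 44.5% in day 7. Without the 51 high-signal blocks (chosen after seeing the data) 47.1% of shared summits lay at gene starts, 93.7% were in uninduced MEF, and 29.5% of control-only were in day 7. The order of the 1-list classes at gene starts turned within 100 bp and over whole lists; their order in uninduced MEF and in day 7 was kept throughout.

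Among genes with unequal counts, whole lists raised the higher share to 87.2% (endothelial), 86.5% (fibroblast), 81.8% (TEAD-YAP), 82.4% (SWI/SNF) and 100% (housekeeping). With 1 summit per peak the endothelial share fell from 56.3% to 42.4% and so turned. Of the 52 genes followed, 46 never changed direction. Whole lists turned Stab1 to 3, Zfpm1 to 2 and Ccn1 to 1, and 1 summit per peak turned Plvap to -2, Ccn2 to -1 and Actb to -1. The cause of these moves was not tested. Read depth, which limits how weak a site can be called, was not analysed here.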
